A study of Saccharomyces cerevisiae with 4 samples.

Results

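Chromosome IV was described here by its Spo11 oligos, counted in 1-kb bins from one end of the chromosome to the other. Its 1532 bins were 1532 of the 12074 bins of the 16 chromosomes, and every bin of the chromosome was used. They held 239037 of 2024944 uniquely mapped oligos (11.8%), on 12.7% of the length of the genome. No measured value was used to choose the bins. The files pool 4 datasets made from diploid budding yeast of the SK1 background, a strain that enters meiosis rapidly and in synchrony. Culture 1 gave 3 technical datasets and culture 2, grown separately, gave 1. All cells were sampled at 4 h in sporulation medium at 30 °C, after growth for 14 h in presporulation medium that was inoculated to an optical density of 0.2. All 4 datasets share the genotype: both copies of SPO11 carried the HA3-His6 tag used to purify the protein (SPO11-HA3-His6::kanMX), NUC1, a mitochondrial nuclease, was deleted with LEU2, and the strain was also homozygous for arg4-Nsp, lys2, leu2::hisG, ura3, ho::LYS2 and his4X::LEU2. There was no untreated, spo11-mutant or earlier sample among the 4, so no background level without breaks was measured.

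Meiotic recombination starts with double-strand breaks made by Spo11, a relative of topoisomerases that stays joined to the 5′ ends it cuts. Nucleases release the protein with a short piece of DNA, the Spo11 oligo, whose 5′ end marks the position of the break. In budding yeast breaks gather in short hotspots, mostly in the nucleosome-poor promoter stretches between genes, and they are known to be scarce near centromeres and chromosome ends. Chromosome IV is the longest chromosome of this yeast apart from the ribosomal DNA array of XII, and its long right arm makes room for broad domains.

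Read names carry the codes of 4 sequencing runs, and the labels do not say which dataset or culture a run holds. The runs held 46934 (E8YXO9P), 68904 (FE8RWPF), 66209 (FFA0GWK) and 56990 (FIDXMPL) oligos of chromosome IV. Values per run are given as a description of technical spread, the runs are not replicates, and no test was made for any comparison below. "Higher" and "lower" therefore compare measured values only. Levels are oligos per 1000000 mapped oligos (RPM), of all reads or of the run, and densities are RPM per kb. Intervals are 95% intervals (Wilson for shares, exact Poisson for counts). They cover counting error only, because PCR copies were not marked. Read names and labels give no other batch.

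Breaks on chromosome IV were concentrated in a small part of its bins. The median bin held 15 oligos, against a mean of 156, and the 10th and 90th percentiles were 3 and 423.8. The strongest bin (835001 to 836000) held 5876. In all, 81 bins (5.29%) held 50% of the oligos and 389 bins (25.4%) held 90%. The 10 strongest bins held 13.9%, and 50 bins of 1000 oligos or more held 38.9%. At the other extreme 598 bins (39.0%) held fewer than 10 oligos and 75 bins (4.9%) held none, against 4.59% of bins of all 16 chromosomes. Neighbouring bins resembled each other little: the Spearman correlation of a bin with the next was 0.248, with the bin 5 kb away 0.0440 and with the bin 100 kb away −0.0451, across bins that share libraries and are not independent.

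**Figure D1:**
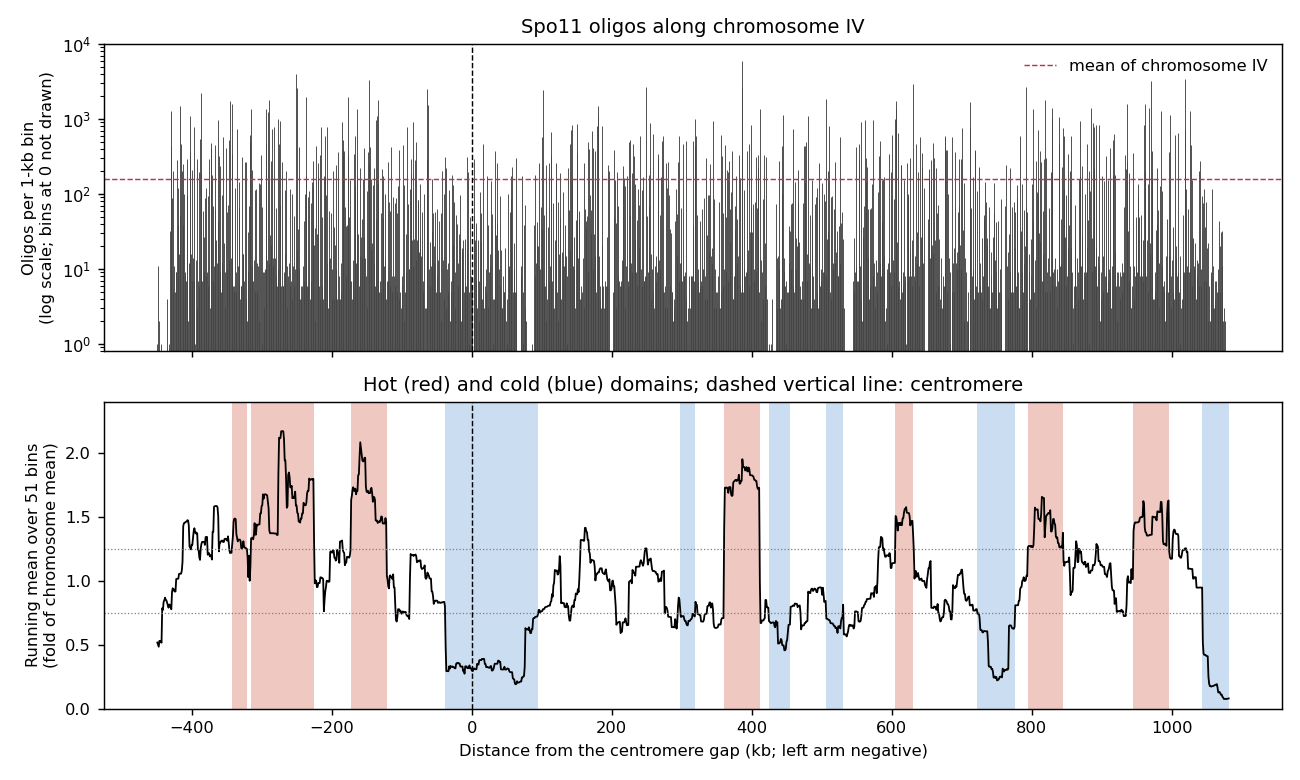
Top: oligos in each of the 1532 bins of chromosome IV on a log scale, against the distance from the gap that holds the centromere, with the mean of 156 as a dashed line and bins without oligos left blank. Bottom: the mean over 51 bins relative to the mean of the chromosome, with hot domains (at least 25% above, red) and cold domains (at least 25% below, blue); the 133-kb cold domain lies over the centromere.

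The density of the whole chromosome was 77.1 RPM per kb, 0.930 times that of all chromosomes (82.9). It was 77.5, 76.5, 76.3 and 78.3 RPM per kb in runs E8YXO9P, FE8RWPF, FFA0GWK and FIDXMPL. All 4 runs placed it below their own genome mean, at 0.935, 0.924, 0.921 and 0.944 times. Among the 16 chromosomes IV ranked 14 by density, 9 by hotspots per 100 kb (29.8) and 8 by the median number of oligos per hotspot (238.5). Only XII (75.0) and XV (75.4) had a lower density. Oligos outside hotspots came to 8.80 RPM per kb of its whole length, hotspots included, rank 15 of 16. These ranks describe single chromosomes and were not tested.

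The left arm had a higher density of oligos than the right arm. The arms were split in the gap between RMD1 (YDL001W) and NTH1 (YDR001C), which flank the centromere. RMD1 is needed for sporulation, and NTH1 is the neutral trehalase that breaks down stored trehalose. The left arm of 450 kb held 83945 oligos, and its density was 94.9, 93.2, 91.9 and 89.0 RPM per kb in runs E8YXO9P, FE8RWPF, FFA0GWK and FIDXMPL. The right arm of 1082 kb held 155092 oligos, with 70.2, 69.6, 69.9 and 73.8 in the same order. The left arm was the higher in each run, and its lowest value lay above the highest of the right arm. Pooled, they stood at 92.2 and 70.8 RPM per kb, and the right was 0.768 times the left. Without the terminal 20 kb of each arm the densities were 95.9 and 72.0.

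Per length, the arms differed less in the number of hotspots than in oligos. Hotspots here are intervals in which smoothed 5′ ends reached 2.3 times the genome mean and that held at least 10 RPM. The left arm had 33.4 hotspots per 100 kb and the right arm 28.3, while the median hotspot held 243 and 236 oligos. Median spacing of summits was 2205 bp on the left and 2588 bp on the right. Divergent gaps, which lie between the starts of a pair of genes, held a hotspot in 82.3% of 62 cases on the left (71.0 to 89.8%) and in 77.9% of 136 on the right (70.3 to 84.1%). These intervals overlap.

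Around the centromere the density was low over a broad stretch on both arms, broken on the left by 1 strong hotspot. The 10 kb left of the centromere held 606 oligos, 29.9 RPM per kb, and the 10 kb right of it held 449, 22.2 RPM per kb. Together the bins within 10 kb stood at a log2 ratio of −1.58 to the rest of the chromosome. On the left the first 6 steps of 10 kb ran from 12.8 to 38.7 RPM per kb, with a mean of 24.2, and the seventh stood at 222, of which 96.6% lay in the BSC1 and PUS9 hotspot. The eighth was again low at 22.9, and the ninth stood at 115.5. On the right 10 steps in a row ran from 3.65 to 43.3, with a mean of 22.5. The next one, between 100 and 110 kb, stood at 166 and holds the hotspot between BAP3 and HEM12. The lowest step, 40 to 50 kb right of the centromere (489749 to 499748), held 74 oligos and no hotspot.

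Runs differed in this stretch. The 100 kb right of the centromere had 19.7 RPM per kb in E8YXO9P, 20.2 in FE8RWPF, 19.97 in FFA0GWK and 30.8 in FIDXMPL. The other runs lay close together and FIDXMPL was the highest. The 60 kb to the left had 23.8, 22.5, 24.3 and 26.4 in the same order, again with FIDXMPL highest. FIDXMPL is 1 run of unknown dataset, and what sets it apart was not tested.

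**Figure D2:**
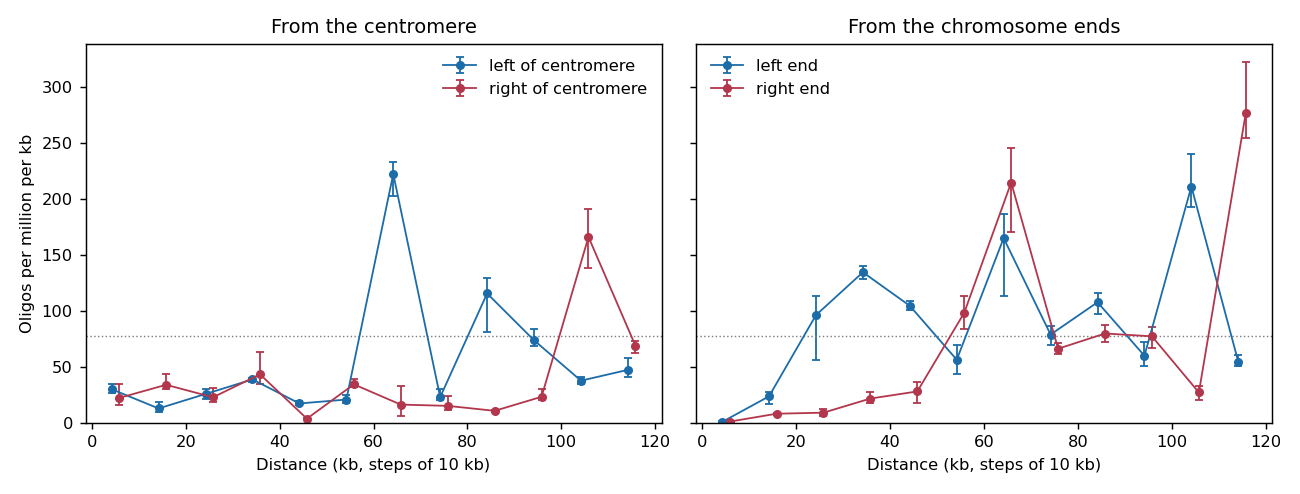
Density of oligos (RPM per kb) in steps of 10 kb from the centromere (left) and from the chromosome ends (right); points are pooled values, bars run from the lowest to the highest of the 4 runs, and the dotted line is the mean of the chromosome (77.1). The first 6 steps left and 10 steps right of the centromere lie below 44, and both ends start near 0.

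Both chromosome ends were poor in oligos, the right end over a longer distance. The left 20 kb held 493 oligos (12.2 RPM per kb), of which 441 lay in the bin 19001 to 20000. The first 18 bins held 20 oligos together, and 12 of them held none. The right 20 kb held 185 oligos (4.57 RPM per kb) and no hotspot. Both ends together stood at a log2 ratio of −3.24 to the rest of the chromosome. On the left the third step of 10 kb was already at 96.1 RPM per kb, above the chromosome mean. On the right the first 5 steps were at 1.04, 8.10, 9.04, 21.6 and 28.0, and the sixth reached 98.2. Of the 185 oligos of the right end, 23.2% were 12 to 24 nt long (17.7 to 29.8%), against 11.6% on the whole chromosome. At the left end the share was 11.4% of 493 (8.85 to 14.5%). End sequences repeated elsewhere cannot map uniquely, and the mappable share of either end was not tested.

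The running mean over 51 bins divided the chromosome into 7 hot domains, 6 cold domains and the stretches between them. The domains were chosen by this mean, so their densities are a description. Hot domains covered 342 kb (22.3% of bins) and held 34.8% of the oligos. Cold domains covered 301 kb (19.6%) and held 6.49%, which was 6.30, 6.11, 6.32 and 7.32% in runs E8YXO9P, FE8RWPF, FFA0GWK and FIDXMPL. The median bin held 23 oligos in hot domains, 16 between domains and 9 in cold domains.

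The cold domain over the centromere was the longest, from 412001 to 545000, with 37.7 kb on the left arm and 95.3 kb on the right. Its density was 22.1 RPM per kb, 0.287 times the chromosome mean, and 0.256, 0.263, 0.263 and 0.369 times in runs E8YXO9P, FE8RWPF, FFA0GWK and FIDXMPL. At 133 kb it was the longest cold domain away from an end on any of the 16 chromosomes under the same rule, where the median of the longest was 58.5 kb and XII followed with 130 kb. It still held 25 hotspots with a median of 111 oligos and 66 genes, and 15 of its bins held no oligo. Leaving those empty bins out of its own mean gave 0.324 times, and counting each position and strand once gave 0.521 times. The second count takes most from dense sites, whether or not their reads are PCR copies.

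Within that domain the strongest hotspot lay between YDR010C and SNQ2, an export pump for toxic compounds, and had 167, 185, 196 and 267 RPM in runs E8YXO9P, FE8RWPF, FFA0GWK and FIDXMPL. The hotspot between MED2, a Mediator subunit, and ATP16, a subunit of the mitochondrial ATP synthase, had 185, 153, 120 and 143. The one between NTH1 and YRB1, a nuclear transport factor, had 88.5, 133, 102 and 246. FIDXMPL was the highest run at the first and last of these and lay inside the range of the others at MED2. Of the 18 divergent gaps of the domain 9 held a hotspot. The other 9 were those between TSC13 and NOP1, YDL009C and APC11, YDL007C-A and RPT2, NHP10 and RMD1, DAS2 and FAL1, REG1 and YDR029W, RAD28 and MIX14, YDR034C-A and CPP3, and EHD3 and KRS1. NOP1 encodes the methyltransferase fibrillarin, RPT2 a proteasome ATPase and KRS1 lysyl-tRNA synthetase, genes that growing cells need.

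The other cold domains were shorter. The domain from 1172001 to 1226000 (54 kb) stood at 0.250 times the chromosome mean, with 10 hotspots of which the strongest, between KEI1 and YPR1, held 225 oligos. The domain at the right end, from 1494001 on, stood at 0.120 times, and its strongest hotspot, between QCR7, a subunit of respiratory complex III, and APA2, held 77. The domains from 748001 to 769000, 874001 to 905000 and 956001 to 980000 stood at 0.646, 0.457 and 0.648 times. Their strongest hotspots lay between CTH1 and GIR2 (510 oligos), at AHA1 and YDR215C (1518) and between YDR249C and PAM1 (982). The hotspot at AHA1 (a co-chaperone of Hsp90) and YDR215C held 68.7% of the oligos of its domain by itself. The summit of this hotspot lay 202 bp inside a gene, outside the convergent gap between AHA1 and YDR215C.

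Single strong hotspots held large shares of the oligos of several hot domains. Of the 7, 4 were exactly 51 kb wide, the width of the running window. The domain from 810001 to 861000 stood at 1.78 times the mean, and 58.8% of its oligos lay in the hotspot between SND1 and CCT6. Without its strongest bin it stood at 1.06 times. The domain from 134001 to 225000 was the longest, with 91 kb at 1.62 times the mean, 1.36 times without its strongest bin. It held 31 hotspots, led by those between COP1 and YDL144C, YDL144C and CCT4, and SCM3 and RGT2. SCM3 delivers the centromeric histone to centromeres and RGT2 is a glucose sensor. The domain from 277001 to 328000, at 1.68 times, had 43.1 hotspots per 100 kb, led by the one between YDL085C-A and NDE2.

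The domain from 1055001 to 1081000 had the highest density, 2.01 times the mean, with 35.4% of its oligos between GIC2 and SUM1. The domains from 1244001 to 1295000 and 1395001 to 1446000 stood at 1.43 and 1.36 times, led by UTP5 and HPT1 (1748 oligos) and by CWC21 and KRE2 (3524). Without its strongest bin the second of these stood at 0.979 times. The domain from 107001 to 128000 stood at 0.717 times itself: its running mean took in strong bins just outside it, such as the ASF2 and SEC31 hotspot at 106503 to 107114, and its own strongest hotspot, between SNF3 and NUS1, held 704 oligos.

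**Figure D3:**
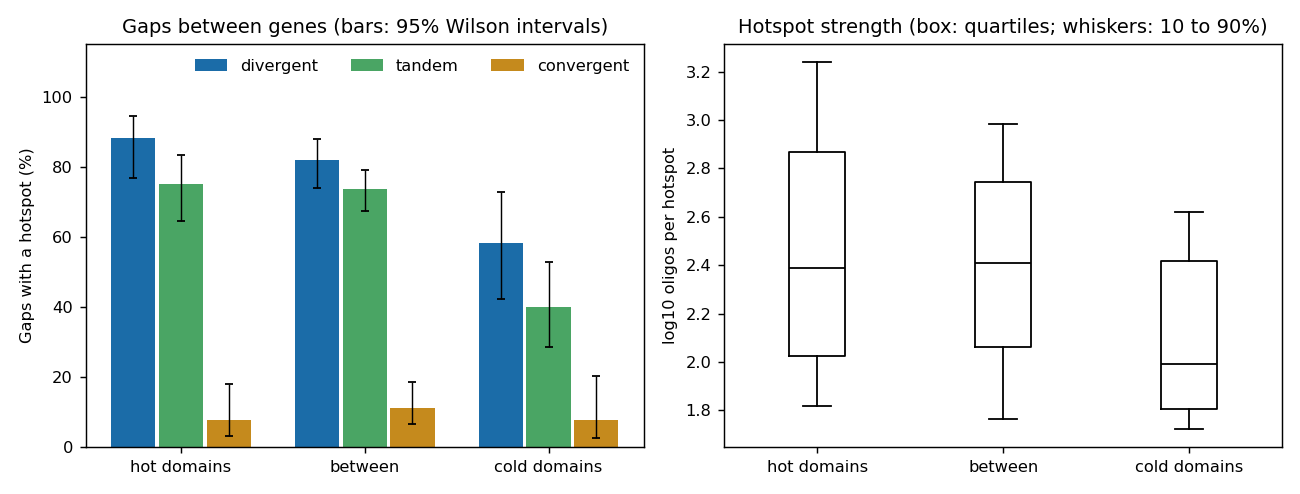
Left: share of divergent, tandem and convergent gaps between genes that held a hotspot in hot domains, between domains and in cold domains, with 95% Wilson intervals. Right: oligos per hotspot on a log10 scale, with boxes from the first to the last quartile and whiskers from the 10th to the 90th percentile; the median was 245, 255.5 and 98 oligos.

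Hot domains did not have stronger typical hotspots than the stretches between domains, while cold domains had fewer and weaker ones. There were 34.2 hotspots per 100 kb in hot domains, 32.2 between domains and 17.6 in cold domains. The median hotspot held 245, 255.5 and 98 oligos in the same order. The 90th percentile was 1737 oligos in hot domains, 960 between domains and 422 in cold domains. These counts share their reads with the rule that set the domains and support nothing about them. Divergent gaps numbered 14.9, 12.5 and 11.96 per 100 kb in hot domains, between domains and in cold domains, and their median width was 468, 501 and 565 bp.

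Oligos of cold domains were spread a little more widely in length. A read was taken to begin at its listed start. The file does not settle this, and all lengths would otherwise be a base shorter. Those of 12 to 24 nt made up 13.01% in cold domains (12.5 to 13.5%), 11.6% between domains and 11.2% in hot domains (11.0 to 11.4%). The order of cold above hot held in each run: 12.2 against 9.88% in E8YXO9P, 11.2 against 10.2% in FE8RWPF, 18.6 against 16.02% in FFA0GWK and 9.87 against 7.94% in FIDXMPL. Oligos of 33 to 76 nt were also more frequent in cold domains (29.5%, 28.8 to 30.2%) than in hot ones (28.4%, 28.1 to 28.7%). In the runs they made up 31.7 against 29.9%, 31.6 against 31.4%, 22.7 against 22.4% and 32.6 against 30.4%, in the same order. The middle class of 25 to 32 nt made up 57.5% in cold and 60.4% in hot domains, and the mean length was 30.4 and 30.5 nt. For both outer classes the spread between runs was wider than the gap between cold and hot domains. Top-strand oligos made up 49.8% in hot domains, 49.7% between domains and 51.2% in cold domains.

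Hotspots took most of the oligos of the chromosome. The 456 hotspots, of 3625 in the genome, covered 7.80% of its length and held 211728 oligos (88.6%). Their median width was 205.5 bp (10th to 90th percentile 90.5 to 501 bp), and neighbouring summits lay a median of 2474 bp apart. The weakest called hotspot held 25 oligos. The 71 strongest held 50% of the oligos of the chromosome and the 20 strongest held 25.01%. Of the 100 strongest hotspots of the genome 10 were on IV. The longest stretch without a summit, 21761 bp, ran from the hotspot at YAP6 and SWM1 to that at AKR1 and PEX10 and held 184 oligos. It includes 12 bins without a listed oligo (982001 to 994000), described below. The curated map had 678 hits in 1 of these bins, so the length of this stretch is uncertain.

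The strongest hotspot of the chromosome lay between SND1, which acts in protein targeting to the endoplasmic reticulum, and CCT6, a subunit of the cytosolic chaperonin (835505 to 836384). It had 4153, 4050, 4070 and 4216 RPM in runs E8YXO9P, FE8RWPF, FFA0GWK and FIDXMPL, so the runs differed little. Its 8332 oligos (95% Poisson interval 8154 to 8513) covered 491 positions and strands, and the commonest, top-strand 835859, had 830 (9.96%). Its rank in the genome was 2. With each position and strand counted once the strongest hotspot of IV had 1366 RPM.

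The next hotspot lay between BSC1 and PUS9, a pseudouridine synthase for mitochondrial tRNA (385865 to 387598), with 2277, 2224, 2140 and 1946 RPM in the same order of runs. FIDXMPL was the lowest. It was the broadest of the 20 strongest, with the middle 80% of its oligos spread over 1345 bp. The third lay between GNP1, a glutamine permease, and SMT3, which encodes SUMO (1468490 to 1469318), with 2149, 2340, 1994 and 1593 RPM, again lowest in FIDXMPL. The fourth lay between COP1, a subunit of the COPI vesicle coat, and YDL144C (198422 to 198706), with 2141, 1814, 1587 and 2205 RPM, here highest in FIDXMPL. It was the narrowest of the 20: the middle 80% of its 3860 oligos lay within 87 bp. Its neighbour between YDL144C and CCT4, another chaperonin subunit, held 2458 oligos, and its summit lay 1298 bp away.

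The hotspot at CWC21, a spliceosome factor, and KRE2, a Golgi mannosyltransferase, had 1810, 1632, 1557 and 2034 RPM. That between YDL085C-A and NDE2, an external NADH dehydrogenase of mitochondria, had 1731, 1737, 1563 and 1086. FIDXMPL was the highest run at the first and the lowest at the second, below all others by a wide margin. The hotspot between BAP3, a branched-chain amino acid permease, and HEM12, an enzyme of heme synthesis, had 1517, 1751, 1390 and 1165 RPM. The one between GIC2, an effector of Cdc42, and SUM1, the repressor of middle sporulation genes, had 1479, 1550, 1490.4 and 1168. The one between ATO3 and EFT2, which encodes elongation factor 2, had 1413, 1404, 1402 and 1092. FIDXMPL was the lowest run in all 3. The other runs lay together at GIC2 and at ATO3 but were spread widely at BAP3. The hotspot between INO2, an activator of phospholipid genes, and YDR124W had 1173, 1292, 1372 and 1374 RPM, with no run far from the rest.

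The other 10 of the 20 strongest held 1816 to 2460 oligos. The strongest of these had its summit inside YDR344C, nearest to the gap beyond the end of HXT3, a glucose transporter gene. The gap on the 5′ side of HXT3 had another hotspot, of 141 oligos. Others lay between YDL144C and CCT4, between MRK1 and MDH3, at FMP45 and CDC13, between HDA2 and MHR1, and between SCM3 and RGT2. The rest lay between PHO2 and NSE4, between MHR1 and SUR2, between YDR246W-A and VHS1, and between ASF2 and SEC31. CDC13 binds telomere ends, HDA2 belongs to a histone deacetylase, NSE4 to the Smc5 and Smc6 complex, and SEC31 to the COPII coat. The hotspots on either side of MHR1 had summits 1195 bp apart. The next hotspot after the 20 held 1752 oligos.

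**Figure D4:**
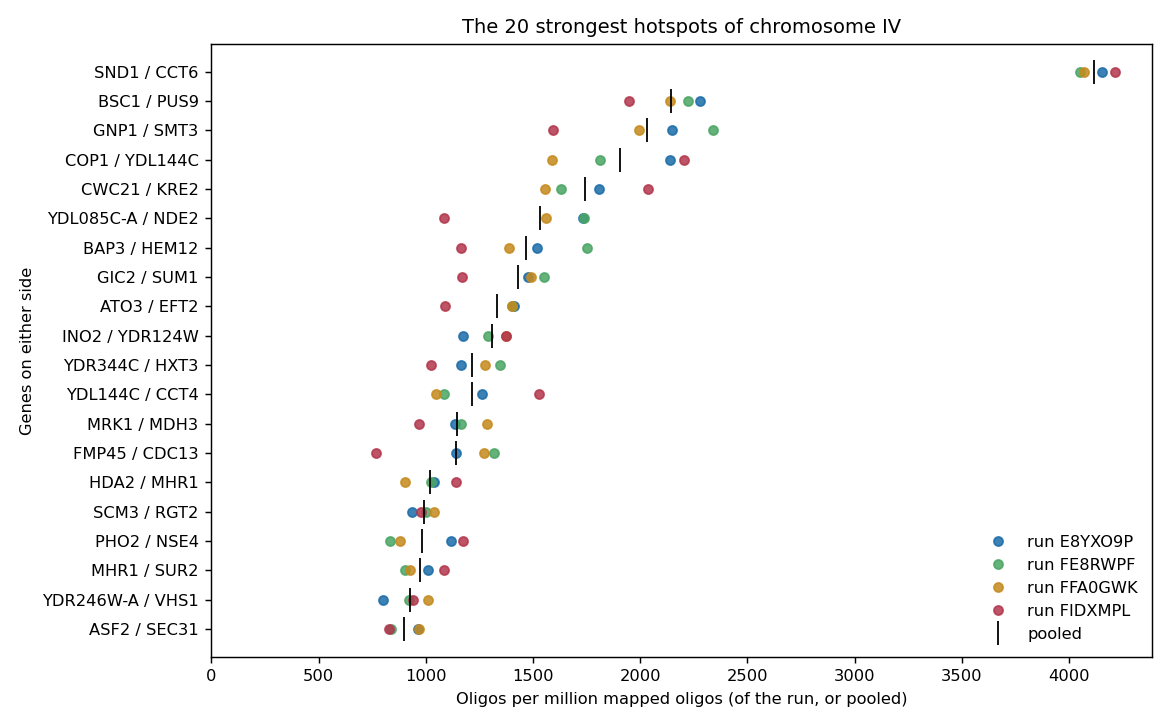
RPM of the 20 strongest hotspots of chromosome IV in each of the 4 sequencing runs (points) and pooled (black line), named by the genes on either side. FIDXMPL is the lowest run in 10 of the 20 and the highest in 8.

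As a group the 20 strongest lay in 12 divergent and 8 tandem gaps or nearest to them, and none at a convergent gap. Of the 20, 9 lay in hot domains and none in cold domains. Of all 456 hotspots, 117 lay in hot and 53 in cold domains. A strong hotspot raises the running mean that sets the domains, so this split is no independent result. FIDXMPL was the lowest of the 4 runs in 10 of them and the highest in 8. The commonest single position held 3.09 to 17.4% of a hotspot, median 9.33%, and the middle 80% of oligos spanned 87 to 1345 bp, median 362 bp. For 3 of them, at CWC21 and KRE2, YDR344C and HXT3, and FMP45 and CDC13, the summit lay 68, 199 and 123 bp inside a gene. A weaker hotspot between AIM6 and PHO13 (31998 to 32282) was dominated by 1 position: bottom-strand 32123 held 518 of its 1458 oligos (35.5%).

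Most hotspots of the chromosome lay between genes, and divergent gaps were the class most likely to hold one. Summits of 414 of 456 hotspots (90.8%) lay in a gap and 42 inside a gene. Each hotspot was counted in the gap of its summit or the nearest one. A hotspot was found for 79.3% of 198 divergent gaps (73.1 to 84.4%), 68.3% of 353 tandem gaps (63.2 to 72.9%) and 9.55% of 199 convergent gaps (6.20 to 14.4%). Over 15 chromosomes the shares were 81.3, 65.7 and 8.86%, and the intervals of IV hold each of these. By number there were more tandem gaps with a hotspot (241) than divergent ones (157), and the classes held 48.9 and 48.0% of hotspot oligos. With only summits inside gaps the shares of IV were 77.8, 65.2 and 4.52%, and 9 convergent gaps had a hotspot in place of 19. The divergent gaps had a median width of 514.5 bp, tandem gaps 416 bp and convergent gaps 231 bp, so that class and width move together, and the part of width was not tested. Per length, divergent gaps held 381 RPM per kb, tandem gaps 244, convergent gaps 29.6 and gene bodies with the ends 13.8.

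In cold domains fewer gaps held a hotspot in the classes that face a promoter. Divergent gaps with a hotspot made up 88.2% of 51 in hot domains, 82.0% of 111 between domains and 58.3% of 36 in cold domains (42.2 to 72.9%). For tandem gaps the shares were 75.0% of 80, 73.7% of 213 and 40.0% of 60 (28.6 to 52.6%). For convergent gaps they were 7.55, 11.2 and 7.69%. A hotspot must pass a fixed density, so a cold domain was bound to have fewer.

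Gene lists that follow were scored by whether a hotspot was assigned to the gap on the 5′ side of a gene. A hotspot with its summit inside a gene was assigned to the nearest gap. With only summits inside the gap, 538 of the 749 genes below (71.8%) had one. Of 749 genes of IV with such a gap 555 did (74.1%), against 73.8% over 15 chromosomes. The median over these genes was 76.1 RPM in hotspots of that gap, with genes without one counted as 0. Genes for meiosis and sporulation had a hotspot in 7 of 12. ZIP1, the central protein of the synaptonemal complex, had 401 RPM (317 to 547 in the runs), UME6, the regulator of early meiotic genes, 174 and MSH5, a crossover factor, 121. XRS2, a partner of Mre11 and Rad50 in making breaks, had none, nor did DIT1 and DIT2, enzymes of the spore wall that share a gap, or SPS1 and SPS2. Of genes for DNA repair and checkpoints 6 of 11 had one, with 226 RPM at SCC2, the cohesin loader, and 216 at PDS1, securin. RAD9, RAD55, RAD57, ESC2 and MUS81 had none.

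Cell division genes had a hotspot in 10 of 12 and those of energy metabolism in 10 of 11. CDC34, a ubiquitin-conjugating enzyme, had 465 RPM (427 to 484 in the runs) and ATP5, a subunit of the ATP synthase, 311 (305 to 318). Amino acid synthesis genes had one in 9 of 10, with a median of 258 RPM. The hotspot of HOM2, an enzyme of threonine and methionine synthesis, had its summit outside the gap, which held no oligo, and 434 of the 870 oligos at ARO1 lay in its gap. The lysine pathway led with LYS4 at 533 RPM and LYS20 at 489, and TRP4 had none. Of 16 genes for ribosomal proteins of the cytosol, 12 had one, with a median over the list of 33.6 RPM, with RPL12B highest at 165. RPS16B and RPL13A share a gap. Chromatin genes had one in 5 of 7, from 1020 RPM at HDA2 to 16.8 in the gap shared by the histone genes HTA1 and HTB1. The silencing genes SIR2 and SIR4 had none. With 7 to 16 genes a list, these counts say little against the 74.1% of all genes of IV.

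Transport genes had a hotspot in 5 of 10, from 2030 RPM at GNP1 and 1041 at RGT2 down to none assigned to HXT6, HXT7, HXT15, ENA2 and ENA5. The gap of HXT6 nevertheless held 759 oligos, because the hotspot at YDR344C and HXT3 had its summit in the next gene and was given to the gap beyond. The gaps of HXT7, HXT15, ENA2 and ENA5 held 18, 4, 0 and 0 oligos. These genes belong to families of near-identical copies, whose reads may not map uniquely, so these values are uncertain. ENA2 and ENA5, sodium pumps, lay in a stretch of 7 bins without any oligo.

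Most empty bins stood in a few long stretches. Of the 75, 58 lay in 9 stretches of 5 bins or more. The longest, 12 bins from 982001 to 994000, holds the YDR261 retrotransposon frames, a tRNA gene and part of YDR262W. The next, 8 bins from 6001 to 14000, holds MPH2, SOR2 and HXT15, of sugar transport and metabolism, and the third, 7 bins from 528001 to 535000, holds ENA5 and ENA2. The stretch at the right end (1526001 to 1531711) holds YRF1-1, a helicase gene of the Y′ end repeat. The other 5, each of 5 bins, hold pairs of retrotransposon frames. These are YDR034C-D and YDR034C-C, YDR098C-B and YDR098C-A, YDR210C-D and YDR210C-C, YDR316W-B and YDR316W-A, and YDR365W-B and YDR365W-A. A bin without an oligo allows up to 3 uniquely mapped ones by counting. Only uniquely mapped reads are listed, the reference is S288C and the cells were SK1. Which of these stretches SK1 carries, and which could be mapped, was not tested.

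The 10 kb beside these stretches were not empty. Of 16 flanks, 14 lay below 77.1 RPM per kb, with a median of 41.3 and a range of 7.65 to 102. Of all 153 windows of 10 kb of the chromosome 62.7% lay below that mean, and their median was 58.5. Of the flanks, 4 lay in the cold domain over the centromere, where 1 pair overlapped. Both flanks of the stretches at 879001 and 1207001 lay in or reached into other cold domains. So did the left flanks of the stretches at 982001 and 1526001. Empty bins also lower the running mean that set the domains, so the flanks are not independent of the domains or of each other. The highest flank was right of the stretch at 6001 and held the hotspot between YDL242W and YDL241W (1420 oligos). The lowest flank was left of the YRF1-1 stretch and had no hotspot. Bins with the start of a tRNA gene had a median of 43 oligos (27 bins, 1 of them empty), against 14 in the other 1505. The share of bins above the chromosome mean was alike, with 6 of 27 and 333 of 1505. The strongest bin held 760 and 5876 oligos in the same order.

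Counts per bin were similar in the 4 runs. Across the 1532 bins, which are not independent, Pearson correlations of counts were 0.987 to 0.992 among the other runs and 0.960 to 0.969 with FIDXMPL. Spearman correlations did not set FIDXMPL apart: they were 0.870 to 0.880 among the other runs and 0.866 to 0.874 with it. Of the 561 bins of IV with at least 50 oligos, 85 (15.2%) had a rate in FIDXMPL at least 1.5 times that of the other runs pooled, and 67 (11.9%) a rate lower by as much. On the other 15 chromosomes the shares were 12.9 and 13.6%, and over all 16 they were 13.2 and 13.4%. In cold domains 21 of 66 such bins (31.8%) were higher in FIDXMPL and 5 lower. In hot domains 10 of 143 (6.99%) were higher and 15 lower.

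**Figure D5:**
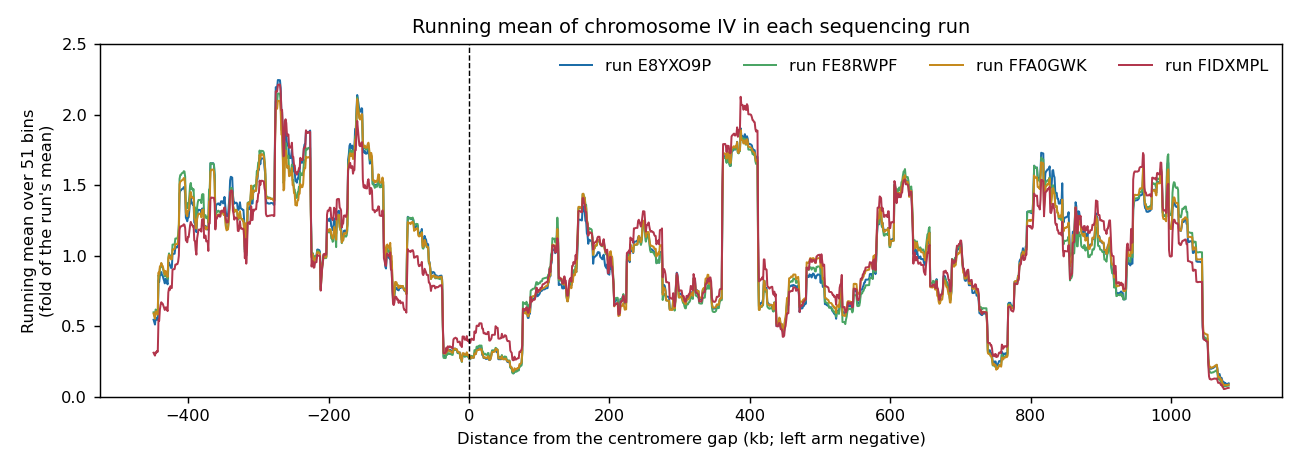
Running mean over 51 bins of chromosome IV in each of the 4 sequencing runs, relative to the mean of that run, against the distance from the centromere in kb. FIDXMPL lies above the other runs over the centromere, where the cold domain stands at 0.369 times its mean against 0.256 to 0.263.

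The bin with the highest ratio of FIDXMPL to the other runs pooled (3.09 times) was 512001 to 513000 at LYS14, the activator of lysine genes, 62.8 kb right of the centromere. It had 60.7, 109, 118 and 309 RPM in runs E8YXO9P, FE8RWPF, FFA0GWK and FIDXMPL. The bin 621001 to 622000, which holds no protein-coding gene, had a lower ratio (2.68 times) but a larger difference in level, with 270, 226, 256 and 667. In both, FIDXMPL lay above all others and in the second the others lay close together. The bin 131001 to 132000 at MRX19 had the reverse, with 32.9, 44.2, 45.9 and 8.41, and the bin 550001 to 551000 at BAP3 had 313, 340, 350 and 124. These bins were chosen for their difference, among the 561 compared.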

How the data were processed

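Spo11 oligos of 4 datasets were read from a list of uniquely mapped 454 reads. The deposited score, 1 number per read from the authors' mapping to S288C per the file headers, was not used as a filter, and neither score nor read was normalised. A second deposited file holds raw hit counts per position, which the authors call a curated map per the file headers, and it served as an alternative. Which aligner and genome build were used, and what the curation did, is not stated in the sources used here. Per the labels' protocols, oligos were immunoprecipitated with the protein, tailed, ligated to linkers, amplified and gel-selected.

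From the list, the start of top-strand reads or the end of bottom-strand reads was counted in bins of 1000 bp, pooled and by run (the first 7 characters of the read name). The 4 runs held 395612 to 587674 reads. Hotspots were segments at or above 2.3 times the genome mean after a Hann window of 201 bp, merged at gaps of 200 bp or less, at least 25 bp long and with at least 10 oligos per 1000000 mapped. Domains were 20 or more bins in a row whose mean over 51 bins was at least 25% above, or at least 25% below, the mean of IV. The domain and hotspot rules were tested on simulated data. Genes of the current S288C reference gave names and order only. Map and gene table were in register within 100 bp in 30 of 30 windows of 50 kb, with a median shift of −5 bp. Chromosome XI was left out of gene backgrounds. A hotspot was given to the gap that held its summit, or else to the nearest. No genome or promoter sequence was used here, so none is printed.

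Named genes flank the 20 strongest hotspots, the strongest hotspot of each domain, the 3 longest empty stretches and the centromere, or belong to the gene lists. Genes named beyond these, such as those at bins that differ between runs, at the 9 empty divergent gaps, at other empty stretches and at AIM6 and PHO13, were chosen after their values were seen. The members, lists and rules were chosen with earlier results of these data known. Alternatives left out or isolated each run and changed the reads, thresholds and windows. Python 3.11.15 with numpy 2.4.6, scipy 1.17.1 and pandas 2.3.3 was used, with matplotlib 3.10.9 for figures.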

Additional observations from a re-analysis of the deposited data

Results flagged for a closer look

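The curated map held hits of chromosome IV where the read list had none. In the bin 992001 to 993000 it had 678 hits, and in the bin 993001 to 994000 it had 11, both inside the longest stretch without a listed oligo. Over the whole chromosome 1396 hits at 371 positions were in the map only and 690 oligos at 469 positions in the list only, while 98.3% of 56025 positions had the same count. Why the files differ there is not given in the sources used here.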

How the results depend on the processing

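Of 160 alternatives to 11 results, 138 were called unchanged. They moved the value by less than the spread over single runs (1 SD of the 4 runs) or kept a count within 1.5 times. The other 22 moved it further, and 0 reversed a direction. The alternatives include the single runs that set this spread and the pools without 1 run. Much of the tally therefore follows from its own yardstick and is no independent check. A reversal was not defined for the counts (bins holding 50% of the oligos, kb of hot and cold domains, hotspots) or for the strongest hotspot. Counting each position and strand once took 50% of the oligos to 176 bins, the centromere to −0.95 and the ends to −2.44 (log2), the arm ratio to 0.856, the density relative to all chromosomes to 0.943 and hot domains to 122 kb. It also moved the cold domain over the centromere from 0.287 to 0.521 times the mean of IV and the strongest hotspot from 4115 to 1366 RPM. Run FIDXMPL alone gave −1.19, −3.69, 0.829 and 0.944 for centromere, ends, arm ratio and relative density. The ends stood at −6.46 over 10 kb and −1.78 over 30 kb. Oligos outside hotspots, divided by the whole length, gave a relative density of 0.948. Thresholds of 1.5 and 0.5 left 114 kb of hot and 180 kb of cold domains. The share of divergent minus that of tandem gaps with a hotspot was 6.80 points in run FFA0GWK alone, against 11.0.

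Without each run in turn, hotspots numbered 457 to 465, the arm ratio was 0.7501 to 0.777, the centromere −1.72 to −1.51, the ends −3.29 to −3.12 and the divergent excess 9.26 to 11.7 points. Hot domains spanned 314 to 367 kb and cold domains 280 to 327 kb. Bins capped at 1000 oligos, empty bins left out, summits inside gaps only and the values of the centromere domain and of the strongest hotspot were added after seeing the data. Capping gave 289 kb of hot domains, and summits inside gaps a divergent excess of 12.6 points. With empty bins left out, cold domains spanned 247 kb, against 301 kb with all bins. No paired analysis was possible because the files pool the 4 datasets and hold no column per dataset. Run depth limits weak bins: each run alone left 186 to 291 bins of IV without an oligo, against 75 pooled.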
